A study of Rattus norvegicus with 16 samples.

Results

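The killer-cell lectin-like receptors are a family of C-type lectin-like proteins carried mainly by natural killer cells and by some T cells and myeloid cells. Its members were taken as every row of the count files whose symbol starts with Klr or Ly49 in any case. There were 28 such rows among the 26405 genes listed in at least 1 file, and all 28 were among the 18031 genes listed in every file. The data are RNA-seq counts from whole blood of 16 male Sprague-Dawley rats aged 85 to 90 days. Every rat received 4 saline injections of 1 ml/kg with 2 h between them, had no food or water during dosing, and was killed 3 h after the last. All libraries form a single group of saline controls, so the design asks how stable these transcripts are from animal to animal and from one run code to another. The study repeated its experiment over time, and the labels tie no rat to an experiment, so run and cohort of animals cannot be told apart. Blood was drawn from the heart and frozen, and globin mRNA was depleted before sequencing. Because whole blood is a mixture, fewer cells of a type and less RNA per cell cannot be told apart in any value below.

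Natural killer cells weigh signals from activating and inhibitory receptors before they release perforin and granzymes. Most of the receptors read MHC class I or related molecules on the cells they meet, inhibitory members damp the response, and activating members signal through adaptor proteins such as Tyrobp and Hcst. In rats the genes lie together on chromosome 4, where the Ly49 branch has expanded into many near-identical copies, and single natural killer cells typically express only some Ly49 genes. In Ly49 names the letter i marks receptors described as inhibitory and the letter s those described as stimulatory.

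The family was divided by structure and function into 7 genes of the CD94/NKG2 group (Klrd1, Klrc1, Klrc2, Klre1, Klri1, Klri2 and Klrk1), 4 NKR-P1 genes (Klrb1, Klrb1a, Klrb1b and Klrb1c), 2 KLRG genes (Klrg1 and Klrg2) and 15 Ly49 rows. Of the 26 symbols, 25 were found in the RefSeq gene table for the rat assembly GRCr8, all on chromosome 4, and Ly49i9 was not matched there. The order of the genes along the chromosome was Klrg2, Klrg1, the 4 Klrb1 genes, Klre1, Klrd1, Klrk1, Klrc2, Klrc1, Klri1, Klri2 and then the Ly49 genes, which started with Ly49si2 and ended with Klra2. RefSeq lists Ly49s4 as a transcribed pseudogene. It also gives Klra1 as an older name of other Ly49 genes, so the match of that symbol is uncertain.

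Windows of 150 bases before the annotated start were read from RefSeq for the 21 symbols with a promoter entry. The following 6 are shown because their genes carry the main contrasts below. Klrb1a and Klrb1b are neighbours whose levels moved apart, Klra1 followed Klrb1b, Ly49i5 has a window much like that of Klra1 but other levels, and Klra17 and Ly49si2 varied together. Capitals mark the PU.1-type letters GAGGAA on either strand, and each window is written 5′ to 3′ in the direction of the gene.
Klrb1a (chr4:163590148-163590297, minus strand): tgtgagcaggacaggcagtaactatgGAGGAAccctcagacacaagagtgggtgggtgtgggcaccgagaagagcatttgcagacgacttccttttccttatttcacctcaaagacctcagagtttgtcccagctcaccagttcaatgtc
Klrb1b (chr4:163647630-163647779, minus strand): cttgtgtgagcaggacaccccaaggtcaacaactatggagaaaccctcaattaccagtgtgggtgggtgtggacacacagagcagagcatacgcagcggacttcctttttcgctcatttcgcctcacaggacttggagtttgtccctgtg
Klra1 (chr4:166313616-166313765, minus strand): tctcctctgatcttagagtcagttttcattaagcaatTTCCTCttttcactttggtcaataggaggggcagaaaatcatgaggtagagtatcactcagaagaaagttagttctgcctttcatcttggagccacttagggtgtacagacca
Ly49i5 (chr4:165694653-165694802, minus strand): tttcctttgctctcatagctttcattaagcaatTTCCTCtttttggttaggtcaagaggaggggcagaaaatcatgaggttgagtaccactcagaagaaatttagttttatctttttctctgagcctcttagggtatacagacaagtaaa
Klra17 (chr4:165550445-165550594, minus strand): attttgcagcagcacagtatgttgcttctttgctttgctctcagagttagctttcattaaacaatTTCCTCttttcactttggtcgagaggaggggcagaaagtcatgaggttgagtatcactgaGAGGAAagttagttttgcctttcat
Ly49si2 (chr4:165397270-165397419, minus strand): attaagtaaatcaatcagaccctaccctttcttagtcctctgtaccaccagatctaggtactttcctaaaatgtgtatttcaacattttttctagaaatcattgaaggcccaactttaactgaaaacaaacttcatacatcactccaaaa

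GAGGAA or its reverse complement TTCCTC occurred in 8 of the 21 windows and in 14.5% of all 33465 promoter windows of this length. Those 8 were Klrb1a and 7 Ly49 windows, many of which share one copied stretch around the match and are therefore not independent. Among the other motifs searched on both strands, the RUNX letters TGTGGT were in 4 windows against 8.38% of all, the C/EBP letters TTGCNNAA in 3 against 5.37%, the STAT letters TTCNNNGAA in 2 against 4.41% and the AP-1 letters TGANTCA in 1 against 3.69%. The T-box letters GGTGTGA were in none of the 21 windows and in 1.88% of all. The TATA letters TATAAA, searched on the forward strand, were also in none of the 21 and in 5.15% of all. In a global alignment the windows of Klra1 and Ly49i5 were 79.4% identical, those of Klra17 and Klra5 83.1% and those of Klrb1a and Klrb1b 68.5%. The 55 pairs of Ly49 windows had a median identity of 51.8% (37.4% to 83.1%), and the 155 other pairs of members had a median of 48.9%.

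Libraries held 21466776 to 31189549 estimated counts, and 3 counts, the floor used here, were 0.096 to 0.14 CPM (counts scaled to the total of the library). The members took 0.0281% ± 0.0062 (SD, n = 16) of the counts. The share was lowest in control 16 (0.0179%, 95% Wilson interval 0.0174% to 0.0185%) and highest in control 3 (0.0395%, 0.0388% to 0.0403%), and these intervals cover counting error only. Even the most similar libraries, controls 11 and 13, differed by more than counting error (chi-square per degree of freedom 48.0), so each counts as 1 sample. Several libraries stood apart in other genes. Liver transcripts were high in control 2, where albumin (Alb) reached 330270 normalized counts against a median of 17.5 over the libraries. Rag1, a lymphocyte recombinase typical of thymus, reached 4189 in control 12 against a median of 11.5. Neutrophil transcripts were highest in control 8. Natural killer and cytotoxic lymphocyte markers were present in every library, with 265 to 654 normalized counts of Ncr1, the receptor NKp46, and 977 to 4131 of Prf1, which encodes perforin.

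Transcripts of 27 of the 28 members were found in every library, and the exception was Klrb1, with 1 to 3 counts in 6 libraries and none in the others. Levels are given as normalized counts, which are counts divided by a size factor for each library. They follow transcript length as well as abundance, and no lengths were used, so levels were not compared between genes. Of the members, 18 had a mean of at least 50 normalized counts. Their coefficient of variation (CV, SD as a percentage of the mean over the 16 rats) had a median of 37.1%, against 25.7% for all 10063 genes with such a mean, and 16 of the 18 lay above that value. Scaled instead to the total count of the library, the medians were 38.2% and 32.5%, with 11 of the 18 above. The 2 scalings differ most for control 10, where the median of all genes is lower by 0.602 (log2) with library totals, and least for control 14 (0.036). None of the members was at 50 or more in one library and at 3 counts or fewer in another.

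**Figure D1:**
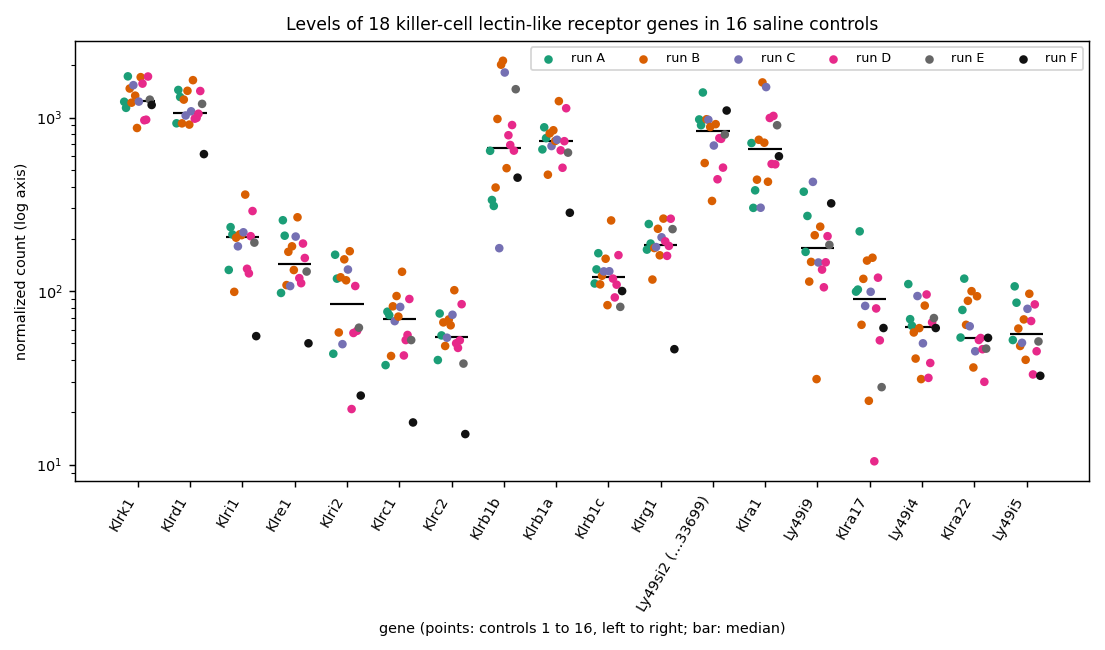
Normalized counts (log axis) of the 18 members with a mean of at least 50, with one point per saline control and a bar at the median of 16 rats. Colours give the run code read from file names. Klrk1 stays within a 1.98-fold range (3.52-fold with library totals), Klrb1b spans 12.0-fold, and control 16 (black) is the lowest point for 8 genes.

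The activating receptor Klrk1 (NKG2D), which binds stress-induced ligands and signals through Hcst, had the lowest CV of the 18. Its level was 870 in control 8 at the lowest, 1251 at the median and 1726 in control 3 at the highest, with a mean of 1321 ± 276 (SD, n = 16). The highest rat was thus 1.98-fold above the lowest, and the CV was 20.9%. With library totals the span was 3.52-fold and the CV 30.4%, and Klrd1 then had the lowest CV (24.2%).

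Klrd1 encodes CD94, the chain that pairs with NKG2 proteins to read nonclassical MHC class I. It ranged from 615 in control 16 through a median of 1069 to 1641 in control 10 (mean 1139 ± 263). Its partner chains varied more: Klrc1, the inhibitory NKG2A, ran from 17.5 through 69.2 to 129 normalized counts. Klrc2, the activating NKG2C, ran from 15.0 through 54.7 to 101. For all 3 genes control 16 was the lowest rat under every scaling, and control 10 was the highest with size factors. With library totals the highest was control 3 for Klrd1 and Klrc1 and control 14 for Klrc2. The ratio of Klrc1 to Klrc2 within a library lay between 0.641 and 1.70, and that of Klrc1 to Klrd1 between 0.0276 in control 16 and 0.0790 in control 10. The counts of Klrc1 and Klrc2 were not whole in any library, so the split of reads between them is uncertain. These ratios and those below were chosen after the levels had been seen.

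Klre1 encodes a chain that pairs with the Klri1 product in an inhibitory receptor and with the Klri2 product in an activating one. Klre1 ranged from 50.03 through 144 to 266 and Klri1 from 55.0 through 205 to 360, again with control 16 lowest and control 10 highest. Klri2 was highest in control 10 too (170) but lowest in control 11 (20.9), with a median of 84.3. Controls 11 and 16 were the lowest rats for Klri2. The ratio of Klri2 to Klri1 ran from 0.155 in control 11 to 0.718 in control 7, a 4.62-fold span. Over the 7 genes the summed level was 3022 ± 620, from 1959 in control 16 to 4375 in control 10.

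Among the NKR-P1 genes, Klrb1a (NKR-P1A, CD161a) is the receptor by which rat natural killer cells are usually recognized. It had 283 normalized counts in control 16, 732 at the median and 1242 in control 10 (mean 734 ± 232). Klrb1c ran from 81.1 in control 15 through 120 to 255 in control 10. Klrb1b, whose product NKR-P1B is an inhibitory receptor for a Clec2 family ligand, behaved otherwise. It ranged from 177 in control 6 through 669 to 2123 in control 8 (mean 890 ± 626), a 12.0-fold span with a CV of 70.3%, the highest of the 18 with size factors. Controls 7, 8 and 9 were the highest and controls 2, 3 and 6 the lowest. Its ratio to Klrb1a ran from 0.258 in control 6 to 2.90 in control 8, an 11.2-fold range. The counts of Klrb1b were not whole in any of the 16 libraries, so the counting program shared its reads with other transcripts, and those of Klrb1a were not whole in 15.

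Klrg1, an inhibitory receptor for cadherins on mature natural killer and effector T cells, had 46.3 normalized counts in control 16, 185 at the median and 262 in control 10. Control 16 lay apart from the other 15 rats for this gene. Klrg2 was low throughout, with a mean of 7.26 and at most 20.3.

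The Ly49 rows, receptors for MHC class I, included 7 with a mean of at least 50. Ly49si2 (ENSRNOG00000033699) ranged from 331 in control 8 through 840 to 1394 in control 3, a span of 4.22-fold with size factors and 7.47-fold with library totals. Klra1 ranged from 302 in control 2 through 655 to 1592 in control 7. Ly49i9 ranged from 31.1 in control 8 through 176 to 426 in control 6, a 13.7-fold span. The low value of Ly49i9 in control 8 stood apart from all other rats, among which the next was 105 in control 12. With library totals the span was 21.2-fold. Klra17, the rat gene named like mouse Ly49Q of plasmacytoid and myeloid cells, had the widest span of the 18, 21.1-fold, from 10.5 in control 11 through 90.6 to 221 in control 3. Ly49i4 (31.1 to 110), Klra22 (30.0 to 118) and Ly49i5 (32.5 to 107) each spanned less than 4-fold, and 5.91-fold, 5.76-fold and 3.85-fold with library totals. Highest values fell in controls 1, 3 and 2 for these 3 genes, all of the same run code, and in controls 1, 3 and 3 with library totals. With size factors, controls 1, 2 and 3 held the highest value of 4.91%, 11.08% and 4.22% of all 10063 genes.

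The other 8 Ly49 rows had means from 8.77 (Klra5) to 48.6 (Ly49s7). The 2 rows named Ly49i7 held identical values in all 16 libraries and count as 1, which leaves 27 members with distinct values. The second Ly49si2 row (ENSRNOG00000031258) had a mean of 34.8 and, like the first, was lowest in control 8 and highest in control 3. Counts of 19 of the 28 members were not whole (by more than 0.001) in at least 8 libraries and those of 9 in all 16 (Klrb1b, Klrc1, Klrc2, Klra5, Ly49i4, Ly49i9, Ly49s7 and both Ly49si2 rows). Levels of single genes are therefore uncertain where copies share reads. As a sum, which does not depend on how reads are split within the group, the Ly49 rows gave 2188 ± 516, from 1325 in control 8 to 3261 in control 7.

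Extreme values gathered in a few rats, and which rat was highest depended on the scaling. Members that varied together, as given below, are not independent in these counts. With size factors, control 10 was the highest library for 9 of the 18 members (Klrb1a, Klrb1c, Klrc1, Klrc2, Klrd1, Klre1, Klrg1, Klri1 and Klri2), while it was highest for 10.48% of all 10063 genes. TMM scaling gave 8 of these, without Klrg1. With library totals control 10 was highest for none of the 18 and control 3 for 10, against 2.62% and 12.46% of all genes. Control 16 was the lowest for 8 (Klrb1a, Klrc1, Klrc2, Klrd1, Klre1, Klrg1, Klri1 and Ly49i5), against 4.45% of all genes. The same 8 were lowest there with TMM, and with library totals these and Klri2. Control 8 was lowest for 4 of the 18 members, Klrk1, Ly49i4, Ly49i9 and Ly49si2. That is near its share of all genes, since it held the lowest value of 19.5% of them. With size factors control 3 was highest for 4, Klra17, Klra22, Klrk1 and Ly49si2, against 4.22%, and it was highest for these 4 under every scaling.

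Control 16 was also the lowest rat for Ncr1 (265 normalized counts), Prf1 (977), granzymes Gzma (201), Gzmb (133), Gzmk (494) and Gzmm (607), the granule protein Nkg7 (420) and the transcription factor Tbx21 (193). Counting genes that averaged 50 or more, it was the lowest for 6 of 9 effectors, 2 of 5 natural killer and related receptors, 2 of 9 regulators and none of 12 adaptors. Ctsw, Ccl5, Il2rb, Eomes, S1pr5, Cd244 and Fcgr3a were lowest in other rats. Klrk1, the NKR-P1 gene Klrb1c, and T cell markers were not lowest there, and Cd3e had 1772 against a median of 1746. This rat is the only library of run code F, so animal and run cannot be told apart.

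**Figure D2:**
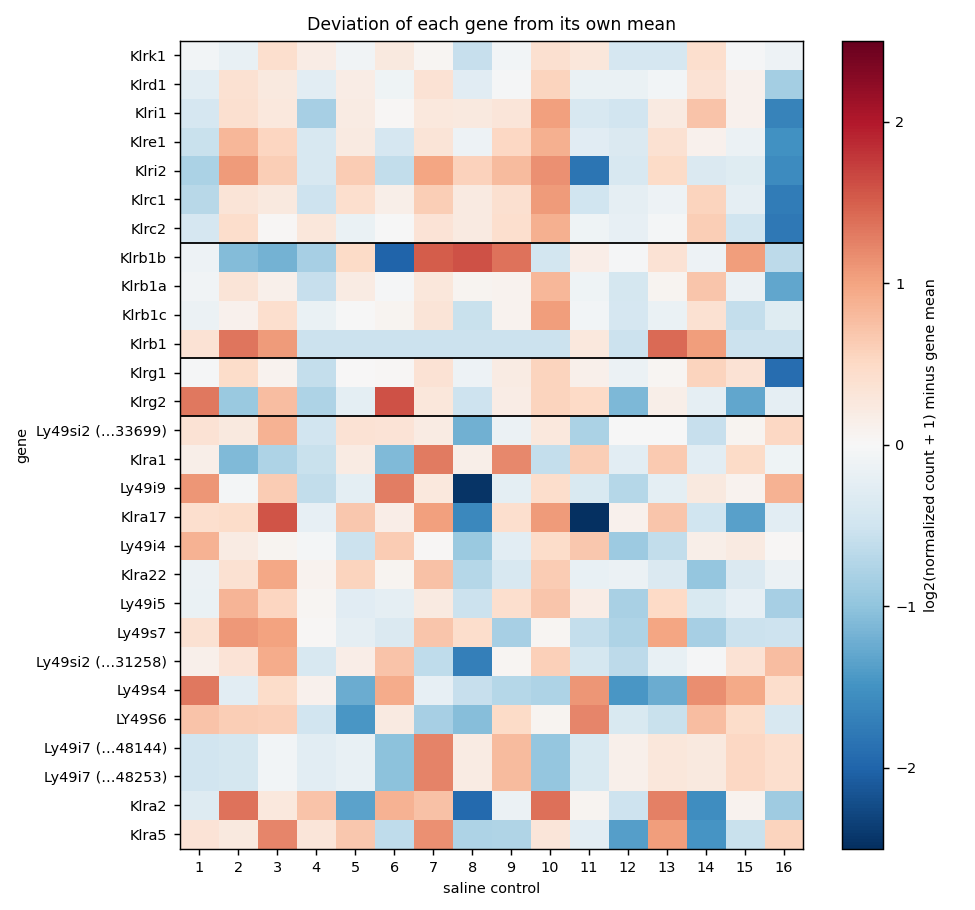
Deviation of each of the 28 rows from its own mean over 16 saline controls, in log2(normalized count + 1), with genes grouped as CD94/NKG2, NKR-P1, KLRG and Ly49 from top to bottom. Control 16 is blue for 6 of the 7 CD94/NKG2 genes by a clear margin, control 10 is red there with the size factors used (with library totals it is the highest rat for no member), and Klrb1b and Klra1 are red together in controls 7 and 9.

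Within the CD94/NKG2 group, Klrd1, Klrc1, Klrc2, Klre1, Klri1 and Klri2 varied together. Their 15 pairs had a Pearson r of log2 levels between 0.65 and 0.94 over the 16 libraries, with a median of 0.85. Without control 16 the median was 0.75, and without controls 10 and 16 it was 0.69. With library totals it was 0.82. Klrk1 had r from -0.12 to 0.41 with these 6 genes (-0.16 to 0.66 with library totals), a difference that was not tested. All pairs of the 10063 genes had a median of -0.02. These correlations share libraries and size factors and are given as descriptions. How the uncertain split of reads between Klrc1 and Klrc2 affects their r was not tested.

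Klrb1a and Klrg1 went with the same genes, with r = 0.97 between Klrb1a and Klri1 and r = 0.90 between Klrb1a and Klrg1. Klrb1b went with Klra1 (r = 0.87) and against Ly49i9 (r = -0.56). RefSeq places Klrb1b next to Klrb1a, and the windows of Klra1 and Klrb1b were 51.5% identical. In the Ly49 group the 21 pairs had a median r of 0.28. Ly49si2 went with Ly49i9 (r = 0.77) and Klra17 (r = 0.75), and Ly49i4 with Ly49i9 (r = 0.72). Counts of Ly49si2, Ly49i9 and Ly49i4 were not whole in any library, and those of Klra17 were not whole in 15. How the split of reads between copies affects these r was not tested. Klra1 and Ly49i5, whose windows are shown above, had r = -0.03, and 0.15 with library totals. Their counts were not whole in 10 and 12 libraries, and the match of the symbol Klra1 to its window is uncertain. Whether windows or gene order bear on any of these r was not tested.

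**Figure D3:**
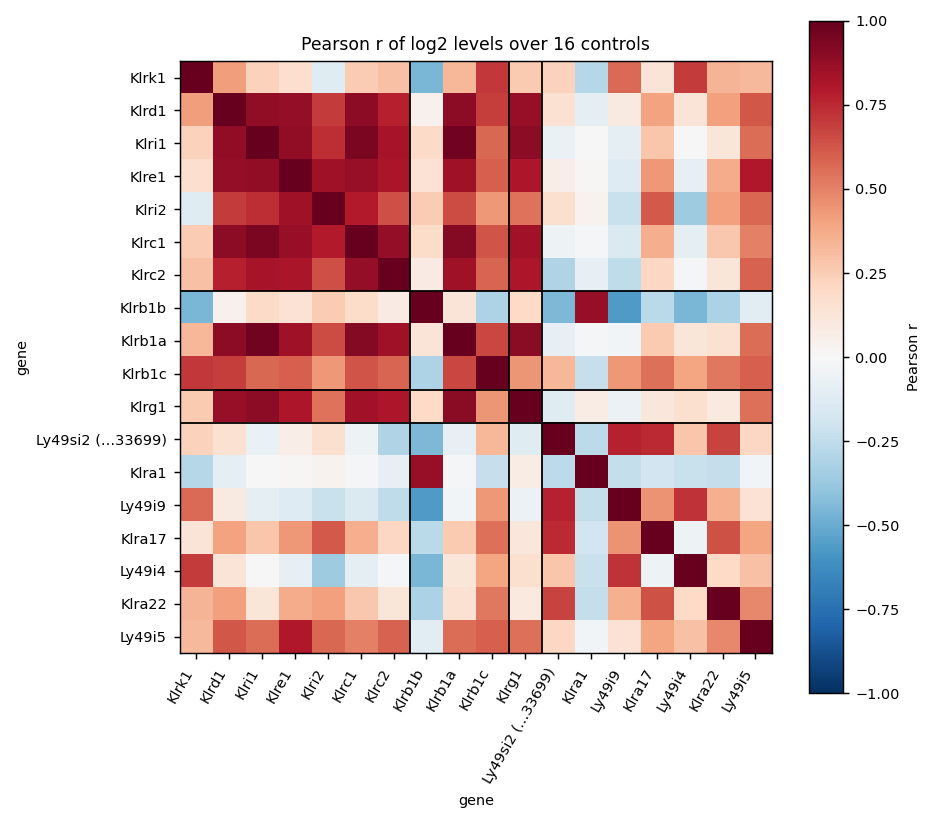
Pearson r of log2(normalized count + 1) over 16 saline controls for each pair of the 18 members with a mean of at least 50 (colour scale from -1 to 1), with lines between the 4 groups of genes. A red block holds the CD94/NKG2 genes other than Klrk1 together with Klrb1a and Klrg1, and Klrb1b is red mainly with Klra1 (r = 0.87).

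Relations of the 5 members with the highest mean counts (Klrk1, Klrd1, Klrb1b, Ly49si2 and Klrb1a) were tested with one another and with 6 lineage genes, Ncr1 and Prf1 of cytotoxic cells, Cd3e and Cd8a of T cells, Cd79b of B cells and Ccr1, a chemokine receptor abundant in monocytes. Among 40 relations, 5 had an adjusted p under 0.05 in a two-sided permutation test of Pearson r with 100000 resamples, all positive, and 11 had an unadjusted p under 0.05.

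Klrd1 rose with Klrb1a across the 16 rats (r = 0.90, p = 3e-05, adjusted p = 0.0006, and Spearman rho = 0.84, p = 7e-05). Centred within run codes r was 0.84 (p = 0.0003, adjusted p = 0.012, permutation test). All values within run codes used the 14 libraries in runs of at least 2, without controls 15 and 16. Without controls 10 and 16, the 2 rats farthest from the median of Klrb1a, r was 0.74 (adjusted p = 0.026). Klrb1b rose with Ccr1 to the same degree (r = 0.89, p = 3e-05, adjusted p = 0.0006, and rho = 0.89, p = 2e-05). The value within run codes was 0.89 (p = 0.0018, adjusted p = 0.036), and without controls 2 and 8 it was 0.86 (adjusted p = 0.0028). Both relations kept an adjusted p under 0.05 under all 12 alternatives tried within this set of 40. The monocyte gene Csf1r had r = -0.44 with Klrb1b (p = 0.092, adjusted p = 0.3 over the wider set below, rho = -0.52, p = 0.04), opposite in sign to Ccr1. Relations with the monocyte genes Cd14 and Cd68 were not computed. Klrb1b and its neighbour Klrb1a had r = 0.13 (p = 0.63, adjusted p = 0.76, and rho = 0.08, p = 0.78).

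The remaining 3 called relations rested on few rats. Klrb1a rose with Prf1 (r = 0.77, p = 0.0019, adjusted p = 0.019) and with Ncr1 (r = 0.70, p = 0.0018, adjusted p = 0.019), and Klrd1 rose with Prf1 (r = 0.71, p = 0.0038, adjusted p = 0.03). Spearman's rho was 0.58 (p = 0.02), 0.55 (p = 0.031) and 0.56 (p = 0.025), each with an adjusted p of 0.16. Within run codes r was 0.66 (adjusted p = 0.18), 0.50 (adjusted p = 0.26) and 0.58 (adjusted p = 0.18), so none of the 3 passed the adjustment there. Controls 15 and 16 are absent from those values, so the loss cannot be laid to the centring alone. Without the 2 rats farthest in Prf1, controls 14 and 16, r was 0.46 for Klrb1a and 0.48 for Klrd1, and without controls 6 and 16 it was 0.53 for Klrb1a with Ncr1, each with an adjusted p of 0.37. Leaving out control 16 alone ended all 3 calls, with r = 0.61 (adjusted p = 0.14), 0.50 (adjusted p = 0.21) and 0.52 (adjusted p = 0.17) in the same order. Without control 2 alone, Klrd1 with Prf1 had r = 0.68 (adjusted p = 0.074).

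Klrk1 had no called relation with any of the 6 lineage genes or the other 4 members, and its r with Ncr1 was -0.06 (p = 0.81, adjusted p = 0.91, rho = -0.08, p = 0.76). Ly49si2 had r = -0.61 with Ccr1 (p = 0.013, adjusted p = 0.074, rho = -0.61, p = 0.014) and r = 0.60 with Cd79b (p = 0.013, adjusted p = 0.074, rho = 0.50, p = 0.052), and neither passed the adjustment.

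**Figure D4:**
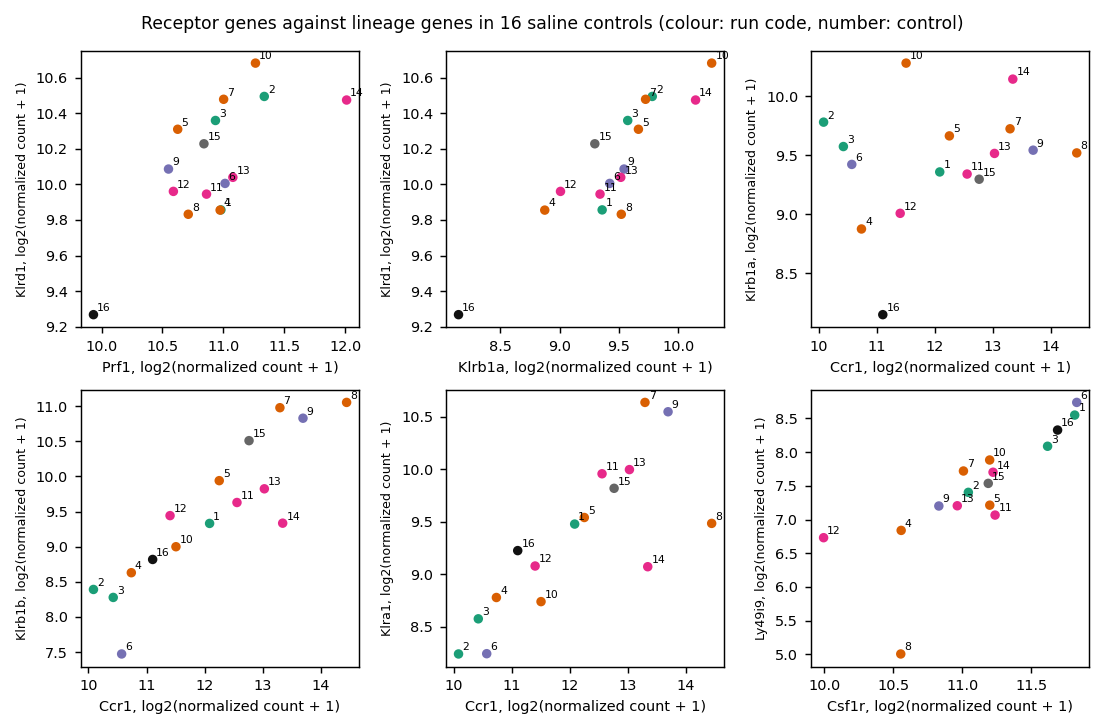
Levels as log2(normalized count + 1) in 16 saline controls, with numbers naming the rats and colours the run codes. Klrd1 lies along a line with Klrb1a (r = 0.90) and Klrb1b with Ccr1 (r = 0.89), while Klrb1a against Ccr1 shows no line and control 16 sits alone in the lower left of the Klrd1 panels.

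A wider set, chosen after these values were seen, took all 18 members against the same lineage genes, Csf1r, the receptor for the monocyte growth factor M-CSF, and Csf3r, the receptor for the neutrophil growth factor G-CSF. Of its 144 relations 9 had an adjusted p under 0.05 in the same permutation test, 8 of them positive. Besides those of Klrb1a and Klrb1b above, Klra1 rose with Ccr1 (r = 0.79, p = 0.00043, adjusted p = 0.021, rho = 0.78, p = 0.00076). Ly49i9 rose with Csf1r (r = 0.79, p = 0.00042, adjusted p = 0.021, rho = 0.83, p = 0.00014). Neither passed the adjustment within run codes, where r was 0.75 (p = 0.03, adjusted p = 0.33) and 0.70 (p = 0.0023, adjusted p = 0.17), and without the 2 farthest rats they had r = 0.85 and r = 0.90. Adjusted over this wider set, Klrb1b with Ccr1 did not pass within run codes either (adjusted p = 0.17).

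Ccr1 and Csf1r did not give the same sign for these members. Ccr1 was highest in control 8 (22339 normalized counts), as was the neutrophil gene Csf3r (59596), while Csf1r had 1503 there. Csf1r was highest in control 6 (3634), where Csf3r was lowest (5704) and Ccr1 had 1520. Which cells carried Ccr1 was not tested. Klra1 had r = -0.20 with Csf1r (p = 0.47, adjusted p = 0.74, rho = -0.29, p = 0.27). With Csf3r, Klra1 had r = 0.68 (permutation test p = 0.0044, adjusted p = 0.052, rho = 0.69, p = 0.0038). That r was 0.65 within run codes (adjusted p = 0.33) and 0.92 without the 2 farthest rats (adjusted p = 0.0029). Ly49i9 had r = -0.50 with Ccr1 (p = 0.043, adjusted p = 0.18, rho = -0.38, p = 0.15) and Ly49i4 had r = -0.35 (p = 0.18, adjusted p = 0.49, rho = -0.34, p = 0.21).

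Ly49i4 also rose with Csf1r (r = 0.74, p = 0.0011, adjusted p = 0.033, rho = 0.75, p = 0.0011), and Klrb1b with Csf3r (r = 0.74, p = 0.0011, adjusted p = 0.033, rho = 0.74, p = 0.0016). Klrg1 rose with Ncr1 (r = 0.70, p = 0.003, adjusted p = 0.047, rho = 0.47, p = 0.068). Klra22 fell as Csf3r rose (r = -0.71, p = 0.0023, adjusted p = 0.042, rho = -0.71, p = 0.0025). Within run codes these 4 had r = 0.71, 0.78, 0.54 and -0.76, with adjusted p between 0.25 and 0.33. Without the 2 farthest rats r was 0.55, 0.81, 0.48 and -0.52, and of these Klrb1b with Csf3r kept an adjusted p under 0.05 (0.02), while the other 3 had 0.46. No member had a called relation with Cd3e, Cd8a or Cd79b.

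Genes outside the family with the most similar profiles were read over the 16 libraries from 9613 genes with a symbol and a mean of at least 50, with no test. For Klrd1 they were Nkg7 (r = 0.94), the granzymes Gzmk (0.91), Gzmb (0.87) and Gzma (0.87), and Il12rb2 (0.81), a chain of the interleukin-12 receptor. Klrb1a had nearly the same neighbours, Gzmk (0.94), Nkg7 (0.93), Gzma (0.93), Gzmb (0.87) and Faslg (0.87), the Fas ligand.

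For Klrb1b the 5 closest were Rab18, Schip1, Rab27a, Fcar and Oas1k, all at r = 0.95. Fcar encodes the myeloid receptor for IgA, and Rab27a a GTPase of granule release. Ly49si2 was closest to Tgfbi, Eno3, Lmo2 and Abhd12 (all 0.86) and Amz1 (0.85). Klrk1 had no gene above 0.74, with Spn (0.74), Ptger4 (0.73), Habp4 (0.72), Cx3cr1 (0.71) and Rcan3 (0.71) at the top. Cx3cr1 is the fractalkine receptor of monocytes and natural killer cells.

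Run codes, read from file names, were compared next, and a difference between runs may equally be one between cohorts of animals. Runs A (controls 1 to 3), B (controls 4, 5, 7, 8 and 10) and D (controls 11 to 14) had at least 3 libraries, and 27 of the 28 members were tested among 12952 genes in 1 edgeR quasi-likelihood fit. No member had an adjusted p under 0.05 between A and B (0% of all genes called), between A and D (0%) or between B and D (2.3%). The 298 genes behind the last share fell to 2 without control 11 or without control 14, and rose in number without control 4, so that background rests on single libraries. At an unadjusted p under 0.05 there were 2, 2 and 1 members, or 7.4%, 7.4% and 3.7% of those tested, against 13.6%, 5.41% and 11.3% of all genes. DESeq2 called no member either, and called 568 of 13100, 8 of 14089 and 765 of 15467 genes in the same order. Limma-voom also called no member, and called 7, 0 and 299 of 12952 genes. The absence of calls does not show equal levels, since the SE of the members' log2 differences had a median of 0.42, 0.45 and 0.40 and ran up to 0.86.

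The members with the lowest adjusted p were LY49S6 between A and B and between B and D, and Klra22 between A and D. LY49S6 had 0.734 ± 0.036 CPM in run A, 0.272 ± 0.128 in run B and 0.643 ± 0.404 in run D (SD, n = 3, 5 and 4). In run B LY49S6 had only 3 to 8 counts per library, near the floor of 3, and it was not whole in 10 libraries. Its log2 difference of B minus A was -1.43 ± 0.50 (SE, edgeR adjusted p = 0.222), and no library of run B reached the level of a library of run A. Klrb1b had 16.5 ± 7.28 CPM in run A, 45.7 ± 31.03 in run B and 29.1 ± 4.85 in run D, and B minus A was 1.47 ± 0.54 (edgeR adjusted p = 0.249) with overlapping values. Klra22 and Ly49si2 (ENSRNOG00000033699) were lower in D than in A by value, with log2 differences of -0.87 ± 0.37 and -0.83 ± 0.35 (edgeR adjusted p = 0.887 for both). Members whose values did not overlap numbered 1, 3 and 0 in the 3 comparisons, against 6.42%, 7.19% and 5.88% of all genes tested.

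**Figure D5:**
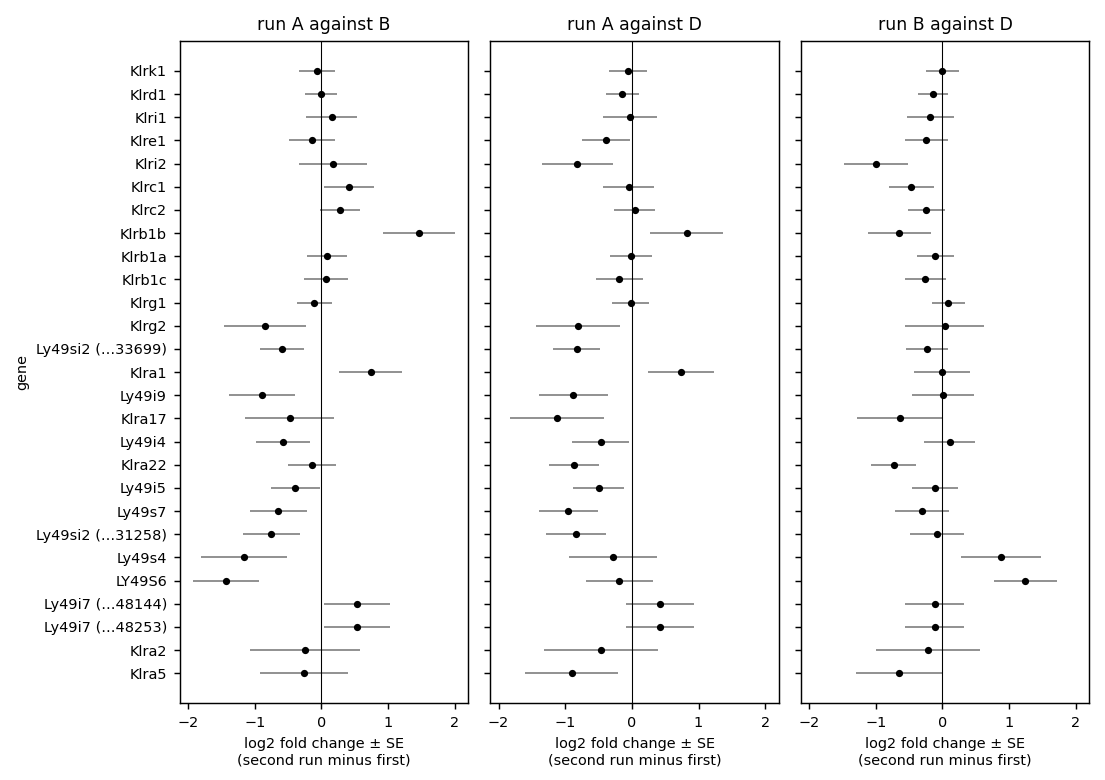
Log2 fold change ± SE (edgeR, second run minus first) of the 27 tested members between run codes A (n = 3), B (n = 5) and D (n = 4). Bars are widest for the rarer Ly49 genes, and no member had an adjusted p under 0.05. The largest shifts are those of Klrb1b (1.47) and LY49S6 (-1.43, at 3 to 8 counts in run B) from A to B.

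Most other genes of the pathway were detected, and none of the receptors, adaptors, effectors or regulators was called between runs. All 12 natural killer and related receptors and all 13 adaptors of the fixed lists were found, and none of the 10 and 13 that were tested was called in any comparison. Tyrobp, the adaptor DAP12 of activating receptors and of myeloid cells, had 7400 ± 3414 normalized counts, from 2596 in control 6 to 15045 in control 8. Hcst, the adaptor of Klrk1, had 523 ± 115, from 273 in control 6 to 730 in control 15. Control 6 was the lowest for both adaptors and for Klrb1b. It was also the lowest for the adaptors Fcer1g and Lcp2 and the neutrophil genes S100a8, S100a9, Csf3r and Camp. The remaining adaptors were lowest in other rats. Control 6 held the lowest value of 8.63% of all 10063 genes.

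Of 15 effector genes 13 were found and 11 tested, and of 10 regulators all were tested, with no call. Ifng, the interferon of natural killer and T cells, was near the floor, with a mean of 2.95 normalized counts. Prf1 was highest in control 14 (4131) and lowest in control 16 (977), and Gzma, Gzmb, Gzmk, Gzmm and Nkg7 had the same highest and lowest rats. The other effectors with a mean of at least 50 did not, with Srgn running from control 6 to control 8, Ctsw from 13 to 2 and Ccl5 from 4 to 14. Control 10, the highest rat for the CD94/NKG2 genes other than Klrk1 with size factors, had 2458 normalized counts of Prf1.

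Among 26 ligand genes found, 16 were tested and 1 was called. The MHC class I gene RT1-T24-1 fell from 35.6 ± 6.39 CPM in run B to 13.2 ± 6.84 in run D, a log2 difference of -1.44 ± 0.34 (edgeR adjusted p = 0.0479). That call held under 4 of 17 alternatives, with edgeR, DESeq2 or limma adjusted p from 0.00118 to 0.179, and it was lost without any single library of the 3 runs other than control 4. RT1 genes are a polymorphic family of near-identical copies, so single values are uncertain. The Klrk1 ligand genes Raet1e and Raet1c were near the floor, with means of 3.53 and 0.58 normalized counts. The Clec2 genes Clec2g and Clec2dl1, relatives of NKR-P1 ligands, had 82.4 ± 23.4 and 63.6 ± 15.9. T cell (7 genes), B cell (4), monocyte (4) and neutrophil (4) markers had no call between runs either, and the median log2 difference of the neutrophil genes from A to B was 2.13. The red cell gene Alas2 fell from B to D, with a log2 difference of -1.44 ± 0.26 (edgeR adjusted p = 0.027), a call that held under 11 of 17 alternatives.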

How the data were processed

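Whole blood RNA of 16 saline-treated rats was sequenced after globin depletion and poly(A) selection. The authors aligned paired reads with Bowtie 0.12.9 to an Ensembl transcriptome of rat build rn5 and ran RSEM 1.2.0, and the deposited values are its estimated counts, not normalized. RSEM divides reads that match several transcripts, which affects copies such as the Ly49 genes. The estimated counts were rounded here, and the study's replacement of outlying values was not applied. Genes listed in all files (18031) were used. The rule by which genes were left out of some files is not given in the sources used here.

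Normalized counts are counts divided by DESeq2 1.42.0 size factors, and log2 levels carry a pseudocount of 1. Libraries were grouped by the run code of their files (A to F), treated as a batch that cannot be told apart from the study's repeated experiments, and those of runs A, B and D were compared with edgeR 4.0.16 (TMM, filterByExpr, quasi-likelihood F-test, Benjamini-Hochberg) in R 4.3.3, with DESeq2 and limma 3.58.1 as alternatives. The code was tested on simulated data. Relations used two-sided permutation tests with 100000 resamples, adjusted over all relations computed, in Python 3.11.15 (scipy 1.17.1, numpy 2.4.6). The p-values measure only the spread among these animals and libraries. A binomial confidence level of 95% and a floor of 3 counts were used.

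Members and gene lists were chosen with earlier results of these data known. By the rule for named genes, members with a mean of at least 50 normalized counts were described by lowest, median and highest level, the others by ranges, and for the 5 members with the highest mean the 5 most similar genes were named. Promoter windows came from the RefSeq table of GRCr8, matched by symbol, and were aligned globally. No transcript lengths were used.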

Additional observations from a re-analysis of the deposited data

How the results depend on the processing

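No member was called between runs under any of the 17 alternatives tried for each comparison (DESeq2 size factors or total counts in edgeR, DESeq2, limma-voom, no filter, and each library left out in turn). With each library left out in turn the count of called members stayed at 0. Over the 17 alternatives the number of all genes called ran from 0 to 568 for A against B. It ran from 0 to 8 for A against D and from 2 to 765 for B against D. At an unadjusted p under 0.05 the count of members ranged from 1 to 11 for A against B, with 11 under total count scaling, and from 0 to 4 for the other 2 comparisons. The number of called relations was 5 of 40. It was 15 when counts were scaled to library totals and 2 with Spearman's rho, when centred within run codes, without the 2 farthest libraries, without controls 2, 8 and 12, and without control 16. The last setting was chosen after seeing the data, as was leaving out controls 10 and 16, which gave 4. Only 2 of those 4, Klrd1 with Klrb1a and Klrb1b with Ccr1, were among the 5 called relations. Why the count moved was not tested. None of the 5 called relations changed sign under its alternatives, while 7 of the 40 relations, all uncalled and with r of 0.185 or less in size, did in rho, within run codes or without the 2 farthest libraries. The summed level of the members (7159 normalized counts) stayed between 7175 and 7332 under its alternatives. Depth limited Klrb1, Klrg2, Klra2 and Klra5, which were at 3 counts or fewer in at least 3 libraries. No paired analysis was possible because all libraries belong to a single group.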
